A study of Mus musculus with 6 samples.

Results

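The integrin subunit genes examined here are 10 genes chosen by name, Itgav, Itga1, Itga5, Itga6, Itga7, Itga9, Itgb1, Itgb3, Itgb5 and Itgb8, out of 45706 genes in the table. They were chosen with earlier results of these data known, and they encode receptors for fibronectin, laminin and collagen. All 10 were found, and all 10 passed the filter on low values (a mean of at least 10), among 15556 genes that did. The samples were mouse embryonic hearts of strain C57BL6/J, profiled by sequencing of poly(A) RNA. There were 3 littermate controls, of genotype RBPMS flox/flox RBPMS2 flox/flox, and 3 double knockouts, which carried the same floxed alleles and were positive for aMyHC Cre. The name stands for the promoter of the alpha-myosin heavy chain, a gene of cardiomyocytes, so these were the cells targeted. In which cells the deletion took place was not measured here. Both groups carried the floxed alleles and no control carried Cre, so the transgene and the deletion cannot be told apart. Neither the embryonic day nor any pooling of hearts is stated in the sources used here.

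Integrins are receptors made of an alpha and a beta subunit that span the cell membrane. Outside the cell they hold matrix proteins, and inside they are linked through talin and kindlin to actin. The alpha subunit sets much of the ligand choice, and in heart muscle beta-1 integrins sit at costameres, where the contractile apparatus is anchored to the matrix. The alpha-V subunit pairs with several beta subunits and recognises the RGD motif of fibronectin, vitronectin, osteopontin and the latency peptide of TGF-beta.

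Itgav and Itgb5, an alpha and a beta subunit that pair with each other, had the largest changes among the members that passed the test, and their promoters are shown for that reason. Each stretch is the 250 bases before the annotated gene start, 5′ to 3′ on the plus strand, from RefSeq on GRCm38.p6, the assembly that mm10 stands for. Capitals mark a GC box, GGGCGG on either strand.
Itgav, chr2:83724147-83724396: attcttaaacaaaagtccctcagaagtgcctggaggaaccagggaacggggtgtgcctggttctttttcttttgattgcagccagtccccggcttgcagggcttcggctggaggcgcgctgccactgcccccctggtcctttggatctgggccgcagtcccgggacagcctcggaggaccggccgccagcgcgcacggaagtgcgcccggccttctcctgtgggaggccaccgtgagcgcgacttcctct
Itgb5, chr16:33829415-33829664: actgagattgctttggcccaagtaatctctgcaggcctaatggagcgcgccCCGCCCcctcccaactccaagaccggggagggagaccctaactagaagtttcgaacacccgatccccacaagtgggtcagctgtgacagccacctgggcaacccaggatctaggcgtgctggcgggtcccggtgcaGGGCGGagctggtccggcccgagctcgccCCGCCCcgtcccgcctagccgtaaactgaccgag

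Both stretches were rich in G and C, at 64.4% in Itgav and 65.2% in Itgb5, beside a median of 52.4% over 32851 promoters of the same length. The Itgb5 stretch held 3 GC boxes, beginning at -199, -63 and -34 from the gene start, and the Itgav stretch held none; 32.7% of all promoters held at least 1. A TATA box (TATAAA), found in 12.4% of promoters, was in neither. The same holds for an AP-1 motif (TGANTCA, 6.75% of promoters), an ETS motif (CCGGAA, 12%), a TEAD motif (CATTCC, 12.6%) and an SRF CArG box (1.47%), each searched on both strands; no motif match overlapped another. Promoters of 7 of the 10 members were in the RefSeq table, and Itgb3, Itga6 and Itga7 were not matched. The Itga9 window, chr9:118711442-118711691, lies inside the gene as annotated here (chr9:118606690-118901003, plus strand). It is therefore not the stretch before that gene start, and that stretch of Itga9 was not searched. Among the other matched members, GC boxes were also present in Itga5 and Itgb1, and a TEAD motif was present in Itgb1. Only these exact patterns were searched, so a stretch without a match may still hold a looser form of a motif. These matches describe letters in the window and were not measured as binding sites.

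The deposited values are rounded reads per gene after a scaling of each sample by the authors, with estimated depths of 12959798 to 25837261 reads per heart. Rbpms ranged from 3868 to 7656 in the controls and from 852 to 1134 in the knockouts, and Rbpms2 from 1362 to 1998 and from 879 to 1003, so the labels held in all 6 hearts. Xist and Y-linked genes showed 2 female and 1 male control and 1 female and 2 male knockouts. Cardiomyocyte markers were abundant in every heart, with a summed value of 777695 to 798058 in controls and 657419 to 705122 in knockouts. Of the 10, 1 rose (Pln), 2 fell (Myh6 and Actn2) and 7 were not called. Myh6, at 86437 to 106187 in controls and 31568 to 39554 in knockouts, made up most of the difference in that sum. Summed macrophage and leukocyte markers were at 1554 to 1759 and 2298 to 3333, with 8 of 10 higher, and endothelial and endocardial markers at 21047 to 21720 and 25166 to 28001, with 7 of 10 higher. Fibroblast markers were at 75040 to 88524 and 93881 to 124507, with 4 of 10 higher, and epicardial markers at 4206 to 4522 and 5043 to 5566, with 2 of 10 higher. Smooth muscle and pericyte markers were at 39748 to 46208 and 23547 to 25471, with 3 of 10 lower (Acta2, Cnn1 and Myh11). Acta2, at 24225 to 29957 in controls and 6450 to 9040 in knockouts, made up most of that sum in the controls but not in the knockouts. The median log2 change of the list was 0.20. In it, 5 pericyte and mural genes (Abcc9, Pdgfrb, Cspg4, Notch3 and Kcnj8) had positive estimates at an unadjusted p under 0.05 without passing the test. With each heart left out in turn, 7 to 8 of the macrophage, 4 to 8 of the endothelial, 2 to 5 of the fibroblast and 0 to 2 of the epicardial markers were higher, and of the cardiomyocyte markers 0 to 1 were higher and 1 to 2 lower. Among all genes tested, 8.61% were higher and 8.56% lower. No marker of these lists was at 0 in all hearts. In whole hearts, fewer cells of a type and less RNA per cell cannot be told apart, and the part of these cell types in the integrin values was not tested.

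Of the 10 integrin genes, 4 rose in the knockouts (Itgav, Itgb5, Itga9 and Itga6) and 0 fell at a limma adjusted p under 0.05. Over all genes tested, 8.61% rose and 8.56% fell. With each heart left out in turn, 3 to 5 members rose and 0 fell, and at an unadjusted p under 0.05, 6 were higher and 0 lower. On estimated reads limma-voom gave 4 higher and 0 lower. The estimate was positive for 9 members and for 50.3% of all genes tested, and the median log2 change was 0.32 over the members and 0.00 over all genes tested. The 2 groups did not overlap in 6 members, 5 higher and 1 lower, where the background is 35.4% of genes (17.5% higher and 17.9% lower). Because the members were chosen with earlier results of these data known, these contrasts with all genes are a description and not a test. The question behind the comparison is how transcripts of the embryonic heart differ when the genes of both RNA-binding proteins are targeted in cardiomyocytes. Neither protein was measured here. The limma p-values set the difference between groups against the spread within these 3 and 3 samples. That spread was moderated for each gene toward a variance trend over all genes tested.

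**Figure D1:**
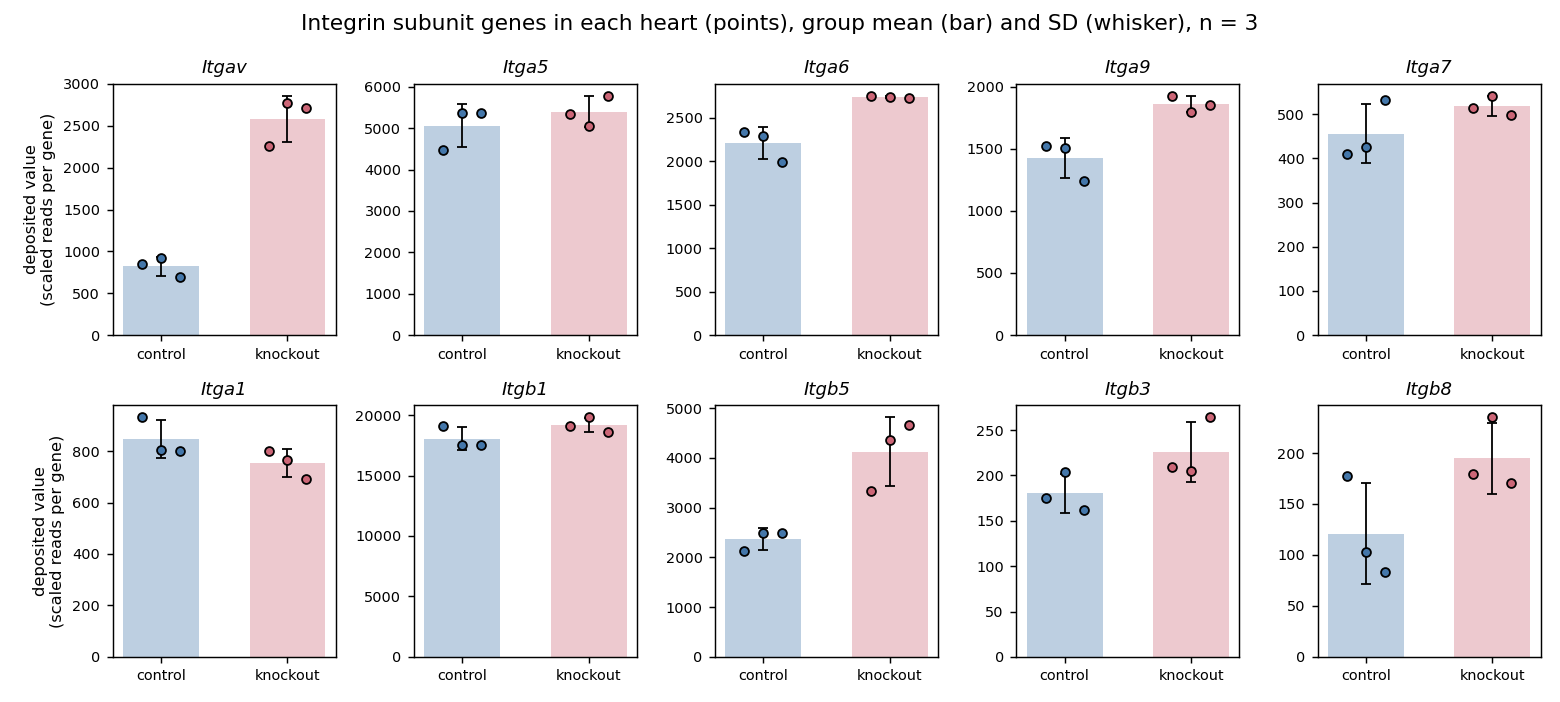
Deposited value (reads per gene after the authors' scaling) of each integrin subunit gene in every heart; points are hearts, bars group means and whiskers SD, with each axis starting at 0 and scaled to its gene. Itgav was at 697 to 921 in the controls and 2262 to 2776 in the knockouts, whereas the groups overlapped for Itgb1, Itga5, Itga7 and Itgb8.

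Itgav (ENSMUSG00000027087; mm10 chr2:83724397-83806916, plus strand) encodes the alpha-V subunit, shared by receptors for vitronectin, fibronectin and latent TGF-beta. Control hearts held 848, 921 and 697, and knockout hearts held 2262, 2776 and 2707. Every knockout lay well above every control, and knockout replicate 1 was the lowest of its group. The mean rose from 822 ± 114 to 2582 ± 279 (SD, n = 3 each), a log2 change of 1.65 (SE 0.11, limma adjusted p = 0.000239). That is 3.15-fold, with a 95% interval of 2.65 to 3.74. By log2 change Itgav ranked 52 of 15556 genes tested. A non-coding gene on the opposite strand, Gm13684, overlaps 5.9% of the exon bases of Itgav and was at 0 or 1 in every heart.

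Among the beta subunits that pair with alpha-V, Itgb5 rose and the others did not pass the test. Itgb5 (ENSMUSG00000022817; chr16:33829665-33949338, plus strand) encodes the beta-5 subunit of a vitronectin receptor. It stood at 2118, 2495 and 2490 in hearts without Cre against 3341, 4360 and 4662 in hearts with Cre. The groups were well apart, with knockout replicate 1 again the lowest of its group. The mean rose from 2368 ± 216 to 4121 ± 692 (SD, n = 3 each), a log2 change of 0.79 (SE 0.12, limma adjusted p = 0.0023), or 1.73-fold.

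Itgb3 (ENSMUSG00000020689; chr11:104608000-104670476, plus strand) encodes beta-3, which is also the partner of alpha-IIb on platelets. It was low, at 175, 204 and 162 in control hearts against 209, 205 and 264 in knockout hearts. The groups were apart by a single unit of the scale, between control replicate 2 and knockout replicate 2. The log2 change was 0.32 (SE 0.14, limma adjusted p = 0.142), and the 95% interval of the fold ran from 1.01 to 1.55 before adjustment. Of the 5 platelet and megakaryocyte markers that could be tested, 0 were called in limma or limma-voom and 1 had an unadjusted p under 0.05. In limma, 17.2% of all genes tested were called. The summed list of 10 was at 202 to 253 in controls and 237 to 303 in knockouts.

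Itgb8 (ENSMUSG00000025321; chr12:119158022-119238802, minus strand) encodes beta-8, which with alpha-V releases active TGF-beta from its latent complex. Its values were 177, 103 and 83 in control hearts against 179, 235 and 171 in knockout hearts. Control replicate 1 lay inside the range of the knockouts, while the other 2 controls lay below it. The log2 change of 0.74 (SE 0.25) was nearly as large as that of Itgb5 but missed the threshold (limma adjusted p = 0.0663). Without control replicate 1 the change was 1.05 and passed (limma adjusted p = 0.00784); leaving out each heart in turn gave 0.51 to 1.05.

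Itgb1 (ENSMUSG00000025809; chr8:128685654-128733200, plus strand) encodes beta-1, the common partner of the laminin, collagen and fibronectin alpha subunits in heart muscle. Control hearts held 19122, 17495 and 17546, and knockout hearts held 19065, 19811 and 18629. Control replicate 1 lay among the knockouts, so the groups overlapped. The log2 change was 0.09 (SE 0.07, limma adjusted p = 0.418), and the 95% interval of the fold ran from 0.957 to 1.18. The values sum all transcripts of a gene, so splice forms of Itgb1, Itga6 and Itga7 that differ between muscle and other cells were not resolved.

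The fibronectin receptor subunit Itga5 did not pass the test. Itga5 (ENSMUSG00000000555; chr15:103344286-103366763, minus strand) encodes alpha-5, which with beta-1 binds the RGD site of fibronectin. It stood at 4468, 5362 and 5357 in hearts without Cre against 5350, 5047 and 5789 in hearts with Cre. The groups overlapped, with control replicate 1 the lowest heart and knockout replicate 3 the highest. The log2 change was 0.09 (SE 0.09, limma adjusted p = 0.494), and the 95% interval of the fold was 0.935 to 1.22. That interval lies below the interval of Itgav, 2.65 to 3.74.

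Itga9 (ENSMUSG00000039115; chr9:118606690-118901003, plus strand) encodes alpha-9, a partner of beta-1 that binds tenascin-C, osteopontin and VCAM-1. Its values were 1525, 1505 and 1236 in control hearts against 1927, 1797 and 1853 in knockout hearts. No knockout reached down to the control range, and control replicate 3 was the lowest heart. The mean rose from 1422 ± 161 to 1859 ± 65.2 (SD, n = 3 each), a log2 change of 0.39 (SE 0.09, limma adjusted p = 0.0134).

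Of the laminin receptor subunits, Itga6 rose and Itga7 did not pass. Itga6 (ENSMUSG00000027111; chr2:71745616-71858416, plus strand) encodes alpha-6, found on endothelial and epithelial cells and on embryonic heart muscle. Control hearts held 2337, 2286 and 1996, and knockout hearts held 2754, 2739 and 2725. The 3 knockouts were nearly equal, with a coefficient of variation of 0.529%, and all lay above the controls. The log2 change was 0.32 (SE 0.07, limma adjusted p = 0.0152). Without knockout replicate 2 the change stayed at 0.32 and missed the threshold (limma adjusted p = 0.0647).

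Itga7 (ENSMUSG00000025348; chr10:128933818-128958282, plus strand) encodes alpha-7, the laminin receptor subunit that predominates in mature striated muscle. It stood at 409, 425 and 532 in hearts without Cre against 515, 542 and 497 in hearts with Cre. Control replicate 3 lay inside the knockout range and the other controls below it. The log2 change was 0.19 (SE 0.11, limma adjusted p = 0.25), with a 95% interval of the fold of 0.969 to 1.35.

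The collagen receptor subunit Itga1 was the only member with a negative estimate. Itga1 (ENSMUSG00000042284; chr13:114953096-115101964, minus strand) encodes alpha-1, which with beta-1 binds collagens of basement membranes and of the interstitium. Its values were 931, 804 and 801 in control hearts against 799, 765 and 693 in knockout hearts. The groups were apart by 2 units of the scale. The log2 change of -0.17 (SE 0.09) did not pass (limma adjusted p = 0.23), and the 95% interval of the fold was 0.777 to 1.02. A gene on the same strand, Gm49395, overlaps 3.68% of the exon bases of Itga1.

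**Figure D2:**
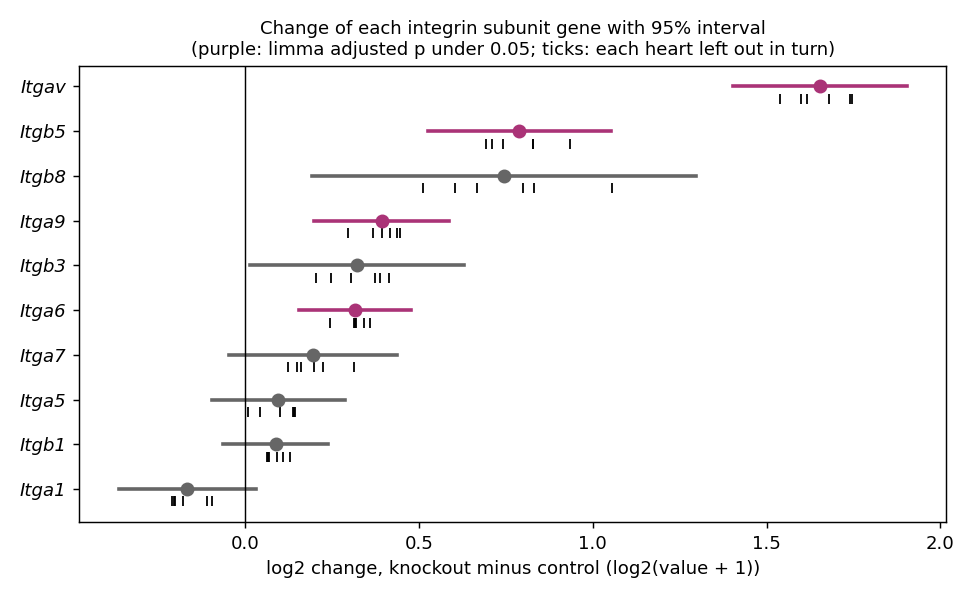
Log2 change of each integrin subunit gene, knockout minus control on the log2(value + 1) scale, with its 95% interval; ticks under each line are the estimates with each heart left out in turn. Itgav stands at 1.65 with ticks from 1.54 to 1.75, Itgb5 at 0.79 and Itga1 at -0.17; purple marks the 4 genes past the threshold.

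Within groups, most members varied little between hearts. The coefficient of variation ran from 5.12% (Itgb1) to 40.9% (Itgb8) in the controls and from 0.529% (Itga6) to 17.9% (Itgb8) in the knockouts. Over the 6 hearts, Itga6 and Itga9 had the most similar patterns of any pair of members, at a root mean square distance of 0.05 between their log2 values, each centred on its gene's mean. Itgav and Itga1 were the farthest apart, at 0.93. These distances describe 6 hearts in 2 groups.

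Divided by exon length, the subunit levels spanned a wide range. In the controls Itgb1 was highest, at 4424 ± 227 per kb of exon (SD, n = 3), followed by Itga5 at 1026 ± 104, Itgb5 at 666 ± 60.9, Itga6 at 244 ± 20.4 and Itga9 at 185 ± 21.0. Itgav followed at 76.5 ± 10.6 per kb, Itga7 at 56.3 ± 8.26, Itga1 at 45.5 ± 3.99, Itgb3 at 30.6 ± 3.64 and Itgb8 at 10.9 ± 4.48. Every neighbouring pair in that order was apart over the 3 controls except Itgav and Itga7, whose ranges overlapped. In the knockouts Itgav stood at 240 ± 26.0 per kb, overlapping Itga9 at 242 ± 8.48 and apart from Itga7 at 64.0 ± 2.8. Itgb5 reached 1160 ± 195 per kb, overlapping Itga5 at 1094 ± 75.6, and Itga1 overlapped Itgb3. The length used was that of all annotated exons merged, which is longer than any single transcript, so these levels are approximate. For Itgav it was 10744 bases against 7054 in the longest transcript, and for Itga9 7691 against 7020. For Itga1 it was 18599 against 10967, and for Itgb3 5901 against 5784. Divided by the longest transcript instead, Itgav lies above Itga9 and Itga1 above Itgb3 in the knockouts, so these overlaps depend on the length used.

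As a share of the alpha subunit transcripts, Itgav was higher in every knockout. Itgav was 5.12%, 4.99% and 3.95% of the summed alpha members per kb in control hearts against 10.8%, 13.4% and 12.2% in knockout hearts. All 3 knockouts held more than any control, and the mean share was 7.43 percentage points higher (exact two-sided permutation p = 0.1, the smallest that 3 against 3 allows). The share of Itga5 was 58.7% to 66.2% in the controls and 53.1% to 56.8% in the knockouts, with a difference of -7.63 points and an exact permutation p of 0.1. The share of Itga1 was 2.52% to 3.25% in controls and 1.80% to 2.19% in knockouts, a difference of -0.751 points, and was also apart (exact permutation p = 0.1). Itga6, Itga7 and Itga9 overlapped between groups as shares. The summed alpha level was 1634 ± 87.7 per kb in controls and 1984 ± 73.8 in knockouts (SD, n = 3 each).

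Among the beta subunits, the share of Itgb5 was 11.2%, 14.0% and 13.9% in control hearts against 16.6%, 20.0% and 22.1% in knockout hearts. That of Itgb1 was 85.2% to 88.0% and 76.9% to 82.5%. Both shares were apart between groups (exact two-sided permutation p = 0.1 each). Itgb3 and Itgb8 stayed under 1% of the beta members in every heart and their shares overlapped. Shares sum to a whole, and the levels of Itgb1 and Itga5 themselves overlapped between groups.

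**Figure D3:**
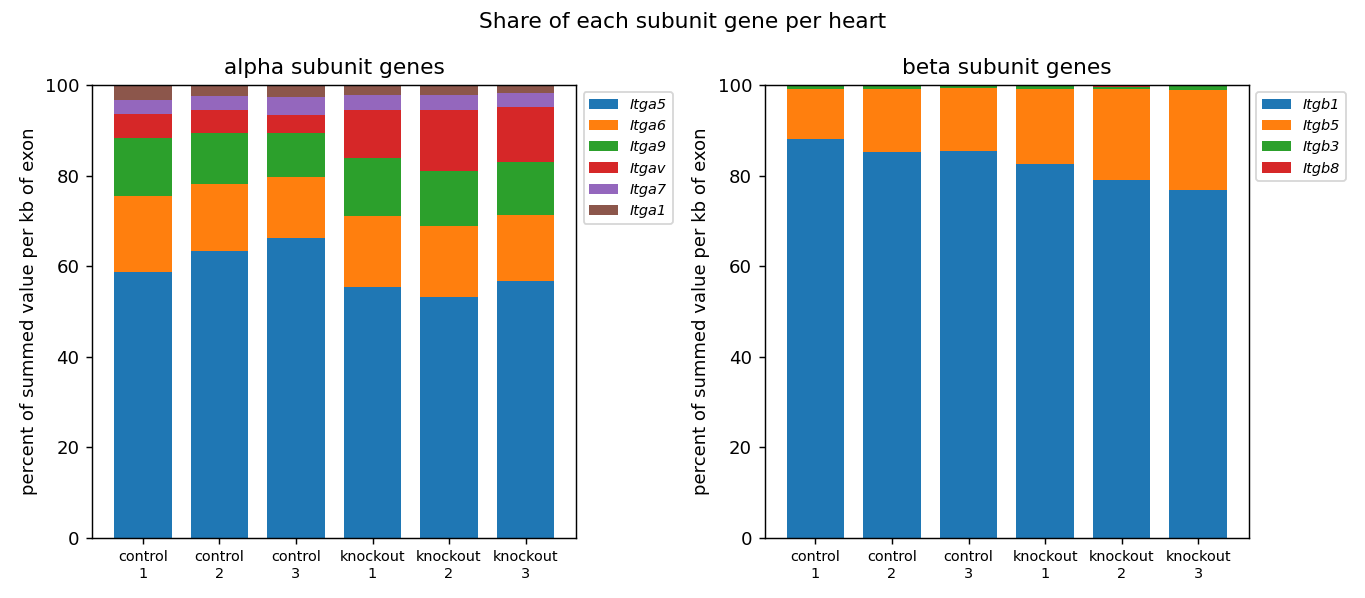
Share of each member in the summed value per kb of exon, for the alpha subunit genes (left) and the beta subunit genes (right), as stacked bars, 1 per heart. Itgav fills 3.95% to 5.12% of the alpha bars in controls and 10.8% to 13.4% in knockouts, and Itgb5 fills 11.2% to 14.0% and 16.6% to 22.1% of the beta bars.

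The ratio of Itgav to each of the 4 beta members was higher in every knockout than in every control. The ratio of Itgav to Itgb5 per kb was 0.132, 0.122 and 0.0926 in control hearts against 0.224, 0.211 and 0.192 in knockout hearts, a difference of 0.87 in the log2 ratio. Against Itgb1 the log2 ratio was higher by 1.57, against Itgb3 by 1.33 and against Itgb8 by 0.91. The design cannot reach the threshold for any of the 4 ratios (exact two-sided permutation p = 0.1 each, the smallest possible; 4 ratios compared, and 0.1 after Benjamini-Hochberg adjustment). Per kb, Itgb5 transcripts exceeded those of Itgav in every heart, and those of Itgb3 and Itgb8 were below Itgav in every heart.

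Genes whose mean value reached 409.7, the median over those tested, were compared with Itgav. The 5 whose pattern over the 6 hearts lay closest to Itgav were Etv5, Sema3b, Adgrg6, Slit2 and Sdc4. Their root mean square distances from it were 0.13, 0.15, 0.16, 0.19 and 0.20 in log2 units. Their log2 changes were 1.31 to 1.90, and their groups were apart; both follow from choosing them for their likeness to Itgav and are a description. Etv5, an ETS transcription factor, read 351, 488 and 369 in control hearts against 1126, 1393 and 1450 in knockout hearts.

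Of 17 other integrin subunit genes, 14 passed the filter, and 4 rose and 0 fell, with a median log2 change of 0.29. Among all genes tested, 8.61% rose and 8.56% fell. This list and those below were also chosen with earlier results of these data known. Itgal and Itgam, alpha subunits of leukocyte integrins, rose by 0.94 (SE 0.18) and 1.14 (SE 0.22), beside the higher macrophage and leukocyte markers. Itgam read 36, 30 and 31 in control hearts against 56, 94 and 71 in knockout hearts. Itga11, a collagen receptor subunit of fibroblasts, read 19, 14 and 11 in control hearts against 24, 44 and 44 in knockout hearts, a rise of 1.27 (SE 0.31). Itga4, a receptor subunit for VCAM-1 and fibronectin, rose by 0.57 (SE 0.17, limma adjusted p = 0.0429) and passed under 8 of 17 alternatives of the fit; Itga11 passed under 10 of the 16 in which it could be tested. Itgb2, the leukocyte beta subunit, was at 24 to 41 and 28 to 44 and did not pass. The count of 4 was 2 without control replicate 3 and 2 without knockout replicate 2.

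Ligands of the alpha-V and alpha-9 receptors changed in both directions. Of 15 listed ligands of the fibronectin type, 14 were tested, 8 rose and 1 fell, with a median log2 change of 0.42. Among all genes tested, 8.61% rose and 8.56% fell. Fn1, fibronectin itself, read 13771, 13481 and 13308 in control hearts against 18616, 25324 and 24487 in knockout hearts, a rise of 0.74 (SE 0.11, limma adjusted p = 0.00197). Tnc, tenascin-C, a ligand of alpha-9, rose by 0.79 (SE 0.11), the thrombospondin gene Thbs1 by 0.77 (SE 0.11) and the fibrillin gene Fbn1 by 0.65 (SE 0.08). Postn, Svep1, Nid1 and Vwf complete the 8. The fibroblast and endothelial markers moved with them, at the values given above, and their part was not tested.

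Spp1, which encodes osteopontin, an RGD ligand of alpha-V that also binds alpha-9, went the other way. Control hearts held 173, 117 and 90, and knockout hearts held 24, 16 and 27. No knockout came near the lowest control, and the log2 change was -2.43 (SE 0.27, limma adjusted p = 0.000721). Vtn, vitronectin, was near the low limit in every heart, at 18 to 27 in controls and 9 to 16 in knockouts, and did not pass the test (limma adjusted p = 0.131).

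Of 9 genes of TGF-beta ligands and their latency proteins, 2 rose and 0 fell, with a median log2 change of 0.34. The shares over all genes tested were 8.61% and 8.56%. Ltbp1, a latency binding protein, read 1180, 1178 and 996 in control hearts against 1681, 1578 and 1655 in knockout hearts, a rise of 0.55 (SE 0.08). Tgfb2 rose by 0.32 (SE 0.07, limma adjusted p = 0.016). Tgfb1 and Tgfb3 did not pass, at log2 changes of 0.21 and 0.27 (limma adjusted p = 0.481 and 0.183). The count of 2 was 1 without control replicate 2 or knockout replicate 2, and 4 without knockout replicate 1.

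Laminin chains, the ligands of alpha-6 and alpha-7, passed the test in 0 of 10 cases in limma and 0 in limma-voom on estimated reads. In limma 1 was at an unadjusted p under 0.05, and the median log2 change was 0.05. The share of all genes tested that passed was 17.2%, so 0 of 10 is not far from it. Lamb3 read 265, 312 and 272 in control hearts against 307, 478 and 355 in knockout hearts (limma adjusted p = 0.099). Lamc1, the gamma-1 chain of most laminins, was at 11226 to 12100 and 10714 to 11200, a log2 change of -0.10 (limma adjusted p = 0.289). Without knockout replicate 1, 1 chain was higher.

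Of 10 collagen chain genes, 4 rose and 0 fell, with a median log2 change of 0.26, where 8.61% of all genes tested rose and 8.56% fell. Col6a3 rose by 0.60 (SE 0.07), with control hearts at 2975, 2928 and 3001 and knockout hearts at 4367, 4909 and 4262. Col1a2 rose by 0.57 (SE 0.13), Col3a1 by 0.55 (SE 0.10) and Col5a2 by 0.52 (SE 0.08). The basement membrane chains Col4a1 and Col4a2 did not pass, at log2 changes of 0.21 and 0.11. In the lists of other subunits, latent TGF-beta genes and collagens, limma-voom also called 0 lower, and 0 were lower at an unadjusted p under 0.05. Col1a2 and Col3a1 also stand in the fibroblast marker list.

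**Figure D4:**
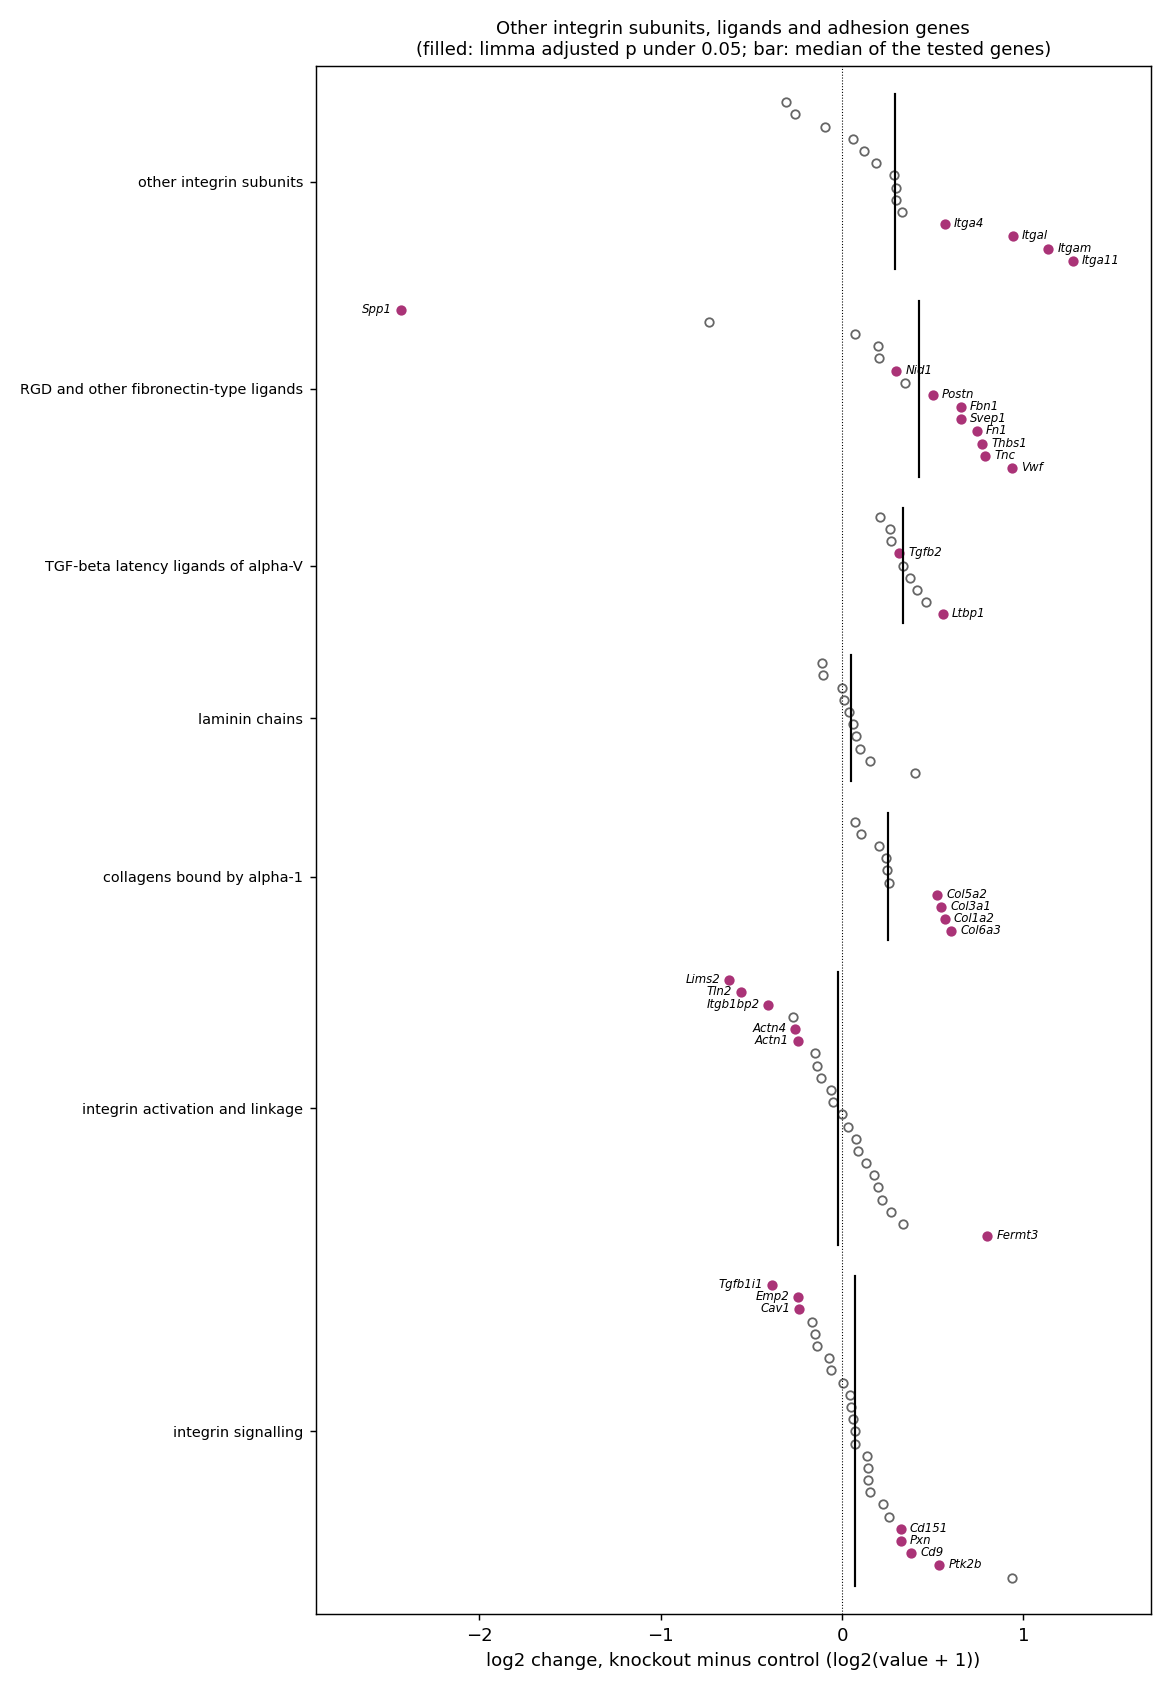
Log2 change, knockout minus control on the log2(value + 1) scale, of the other integrin subunits, the ligand genes and the adhesion genes; each circle is a gene, filled circles passed limma at an adjusted p under 0.05, and the bar is the median of each list. Spp1 stands alone at -2.43, the laminin chains lie around 0.05, and the fibronectin-type ligands have their median at 0.42.

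Genes that activate integrins or link them to actin inside the cell also changed in both directions. Of 22 tested, 5 fell and 1 rose, with a median log2 change of -0.02, where 8.56% of all genes tested fell and 8.61% rose. Tln2, the talin that is abundant in striated muscle, read 3924, 3797 and 4052 in control hearts against 2815, 2568 and 2608 in knockout hearts, a log2 change of -0.56 (SE 0.06, limma adjusted p = 0.000768). Tln1, the widely expressed talin, was at 7346 to 8883 and 7785 to 8712, with a log2 change of 0.00 (SE 0.08). Lims2, an adaptor of the integrin-linked kinase, fell by 0.62 (SE 0.13). Itgb1bp2, which encodes melusin, a muscle protein that binds the beta-1 tail, fell by 0.41 (SE 0.12), from 3165, 3436 and 3113 to 3031, 2180 and 2204. Actn1, an alpha-actinin, fell by 0.24 (SE 0.07), and Actn4 is the fifth that fell. Fermt3, the kindlin of blood cells, rose by 0.80 (SE 0.17), beside the leukocyte markers. The number that fell was 2 without control replicate 2, control replicate 3 or knockout replicate 2, and 3 without knockout replicate 1 or 3. The number that rose was 0 without knockout replicate 2 and 2 without knockout replicate 1 or 3. With equal totals 3 fell and 3 rose, in limma-voom 2 fell and 3 rose, and with embryo sex as a term 3 fell and 1 rose; with quantile normalization 4 fell and 2 rose. Tln2 passed under all 17 alternatives of the fit and Lims2 under 16, but Itgb1bp2 passed under 6 and Actn1 under 7. Ilk shares 76.7% of its exon bases with Taf10 on the opposite strand and was listed at 30 to 45, so its value is uncertain.

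Of 25 integrin signalling genes, 4 rose and 3 fell, with a median log2 change of 0.07, where 8.61% of all genes tested rose and 8.56% fell. Ptk2b, a kinase related to focal adhesion kinase, read 597, 592 and 535 in control hearts against 833, 775 and 893 in knockout hearts, a rise of 0.54 (SE 0.08, limma adjusted p = 0.0028). Focal adhesion kinase itself, Ptk2, was at 1288 to 1370 and 1478 to 1493 and did not pass (limma adjusted p = 0.122). The tetraspanin genes Cd9 and Cd151, whose products associate with laminin-binding integrins, rose by 0.38 (SE 0.08) and 0.32 (SE 0.08), and Pxn, paxillin, by 0.32 (SE 0.09). Tgfb1i1, a paxillin relative known as Hic-5, fell by 0.39 (SE 0.08), from 2935, 3019 and 3561 to 2516, 2316 and 2421. Emp2 and Cav1 complete the 3 that fell. Of the list 2 rose without control replicate 1 or knockout replicate 3, and 1 without knockout replicate 2. Without knockout replicate 2, 0 fell, and without control replicate 3 or knockout replicate 3, 1 fell. With equal totals, quantile normalization or limma-voom 4 rose and 1 fell, and with embryo sex as a term 2 rose and 1 fell. Of the 17 alternatives of the fit, Ptk2b passed under 16, Cd9 under 15 and Tgfb1i1 under 14, but Cd151 and Pxn under 9 each.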

How the data were processed

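Per the labels, poly(A) RNA of 6 hearts was sequenced from stranded paired-end libraries. The submitters' processing notes name Trimmomatic, STAR 2.4.2a, featureCounts 1.5.0, DESeq, DESeq2 and mm10; their roles and the strand setting are not given in the sources used here. The deposited values were treated as a score: reads per gene that the authors had scaled in each sample and rounded to whole numbers, as read from the spacing of values up to 150, since the header states no unit. That spacing also gave the estimated depth.

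Groups came from the sample titles. limma 3.58.1 (R 4.3.3) with a variance trend was run on log2(value + 1). The 15556 genes whose mean reached 10 were tested, with Benjamini-Hochberg adjustment over all of them and a threshold of 0.05. Fold changes are on that scale and understate changes of low genes. The script was tested on simulated data. The 10 members and the gene lists were chosen with earlier results of these data known. In each ligand and adhesion list the text names up to 5 called genes by smallest p (2 if none was called), and every other called integrin subunit; others are given as values and were chosen after their values were seen. Exon lengths and coordinates came from GENCODE M21 on the same build, which held 45143 of 45706 identifiers. Promoter motifs were chosen after the data were seen. Python 3.11.15 was used for tables and figures.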

Additional observations from a re-analysis of the deposited data

How the results depend on the processing

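Itgav and Itgb5 passed under all 17 alternatives of the fit, at log2 changes of 1.54 to 1.75 and 0.69 to 0.93, and no member changed sign under any of them. The number of integrin genes that rose was 2 without a variance trend (Itga6 limma adjusted p = 0.0656, Itga9 0.0626) and 2 against a fold change of 1.2. Over all genes, 2670 were called, 1339 higher and 1331 lower. There were 1755 with no filter on low values (846 higher), 1626 without a trend (812 higher, 814 lower) and 418 against a fold change of 1.2 (211 higher, 207 lower). With each heart left out in turn 1305 to 2370 were called, 614 to 1237 higher and 691 to 1225 lower. Same-numbered hearts did not deviate together (correlations of -0.04, -0.37 and 0.05 across genes), so the numbers were not taken as pairs; with the replicate block 3530 genes were called and 5 members rose, Itgb8 with a limma adjusted p of 0.0348. With embryo sex as a term 4 members rose. Without division by length the share of Itgav was higher by 11.0 percentage points; the other changes in share and ratio, and those with each heart left out, moved by less than the spread between hearts. Values below about 100, as for Itga11 and Itgam, rest on few reads, and their counting error is hidden by the scaling. The causes of these differences were not tested.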
